A study of Mus musculus with 2 samples.

Results

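The 9 genes described here belong to the Notch pathway or set biliary fate in the liver: the ligands Dll4 and Jag1, the receptors Notch1, Notch2 and Notch3, the target genes Hes1 and Hey1, and the transcription factors Sox9 and Sox4. They were taken by symbol from the 32285 genes of the count matrix, and each symbol named exactly 1 row. The levels of each gene were read in cell classes named from marker genes, in each of 2 libraries. None of the 9 genes was a marker of any class, and all 9 were left out of the genes used for clustering.

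Notch signaling passes between touching cells. A Delta-like or Jagged ligand on one cell pulls on a Notch receptor on its neighbor, the receptor is cut by ADAM proteases and γ-secretase, and the freed intracellular part joins RBPJ and a Mastermind protein on DNA to switch on genes of the Hes and Hey families. In the liver, Jagged ligand near the portal vein acting on Notch2 in bile duct precursors is known for building the bile duct tree together with SOX9 and SOX4, while Dll4 and Notch1 are known for their part in vessel growth and endothelial identity.

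The study examined how hepatocyte CCAAT/enhancer-binding protein alpha (encoded by Cebpa) bears on liver fibrosis. Single-cell RNA-Seq was done on 2 mouse livers, 1 labelled Cebp KO and 1 labelled Cebp WT. Both mice had been fed a 40% HFCFD, a steatohepatitis diet high in fat, cholesterol and fructose, for 2 weeks, so neither liver is a chow control. The methods describe loss of Cebpa in hepatocytes through an Albumin-cre or an Albumin-ERT2-cre crossed to Cebpa fl/fl mice on a C57BL/6N background, with males used. Which of both Cre lines gave this sample, and the age of the mice, were not given in the labels. The livers were perfused and digested, and cells were purified through Percoll, a step that can change the proportion of cell types.

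The matrix holds both libraries, told apart only by a 1 or a 2 after each barcode, and no label ties a suffix to a genotype. The libraries are therefore called suffix 1 and suffix 2, no genotype was assigned from any value, and each gene is given in both without a comparison of knockout with wild type. With 1 animal per group there is no test of any difference. Intervals in parentheses are exact 95% intervals that cover counting error only. Levels are in CPM, the unique molecular identifiers (UMIs) of a gene summed over the cells of a class, per 1000000 UMIs of that class. UMIs were read from the 3′ end of transcripts and levels are not per length, so levels are compared between cells and not between genes.

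Suffix 1 held 17313 barcodes and 60048646 UMIs, and suffix 2 held 15003 barcodes and 52355243 UMIs. After cells under 500 UMIs, under 200 genes or over 25% mitochondrial UMIs were left out, suffix 1 kept 11617 cells at a median of 1424 UMIs and suffix 2 kept 6088 cells at a median of 2309.5 UMIs. The mitochondrial limit removed 32.8% of the barcodes of suffix 1 and 59.4% of those of suffix 2. The libraries shared 81 barcodes, of which 34 were kept in both. The doublet caller marked just 0 and 8 cells, too few for it to have worked, and no doublets were removed. Cebpa, the targeted gene, stood at 1.01 CPM (0.665 to 1.47) in hepatocyte-like cells of suffix 1 and at 99.9 CPM (94.6 to 105) in those of suffix 2.

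Of 35 clusters, 30 took a class name. The classes on which the 9 genes turned were hepatocyte-like (9028 cells in suffix 1 and 3882 in suffix 2), cholangiocyte-like (70 and 27), endothelial-like (153 and 180), Kupffer or macrophage-like (334 and 513), neutrophil-like (134 and 54) and plasmacytoid dendritic-like (147 and 121). Every marker of the endothelial and plasmacytoid dendritic lists was detected in its class. In the cholangiocyte-like class 10 of 11 markers were detected, Epcam at 215 and 589 CPM and Krt19 at 80.9 and 265 CPM. The 10 hepatocyte markers summed to 46193 and 40196 CPM in cholangiocyte-like cells, against 22955 and 23367 CPM in erythroid-like cells and 69591 and 82405 CPM in hepatocyte-like cells. Their part in the cholangiocyte-like levels was not tested. Hepatocyte-like cells of both libraries lay mostly in different clusters (0, 2, 3, 4 and 7 for suffix 1 and 1, 11 and 13 for suffix 2), so a hepatocyte-like value of each library describes different clusters. The unnamed clusters held 519 cells (4.47%) and 245 cells (4.02%). Orders of classes cover the 13 named classes of at least 20 cells in each library, so the 16 and 10 mast or basophil-like cells are left out of them. Erythroid-like cells, in which none of the 9 genes reached more than 3 UMIs, served as the measure of free RNA.

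**Figure D1:**
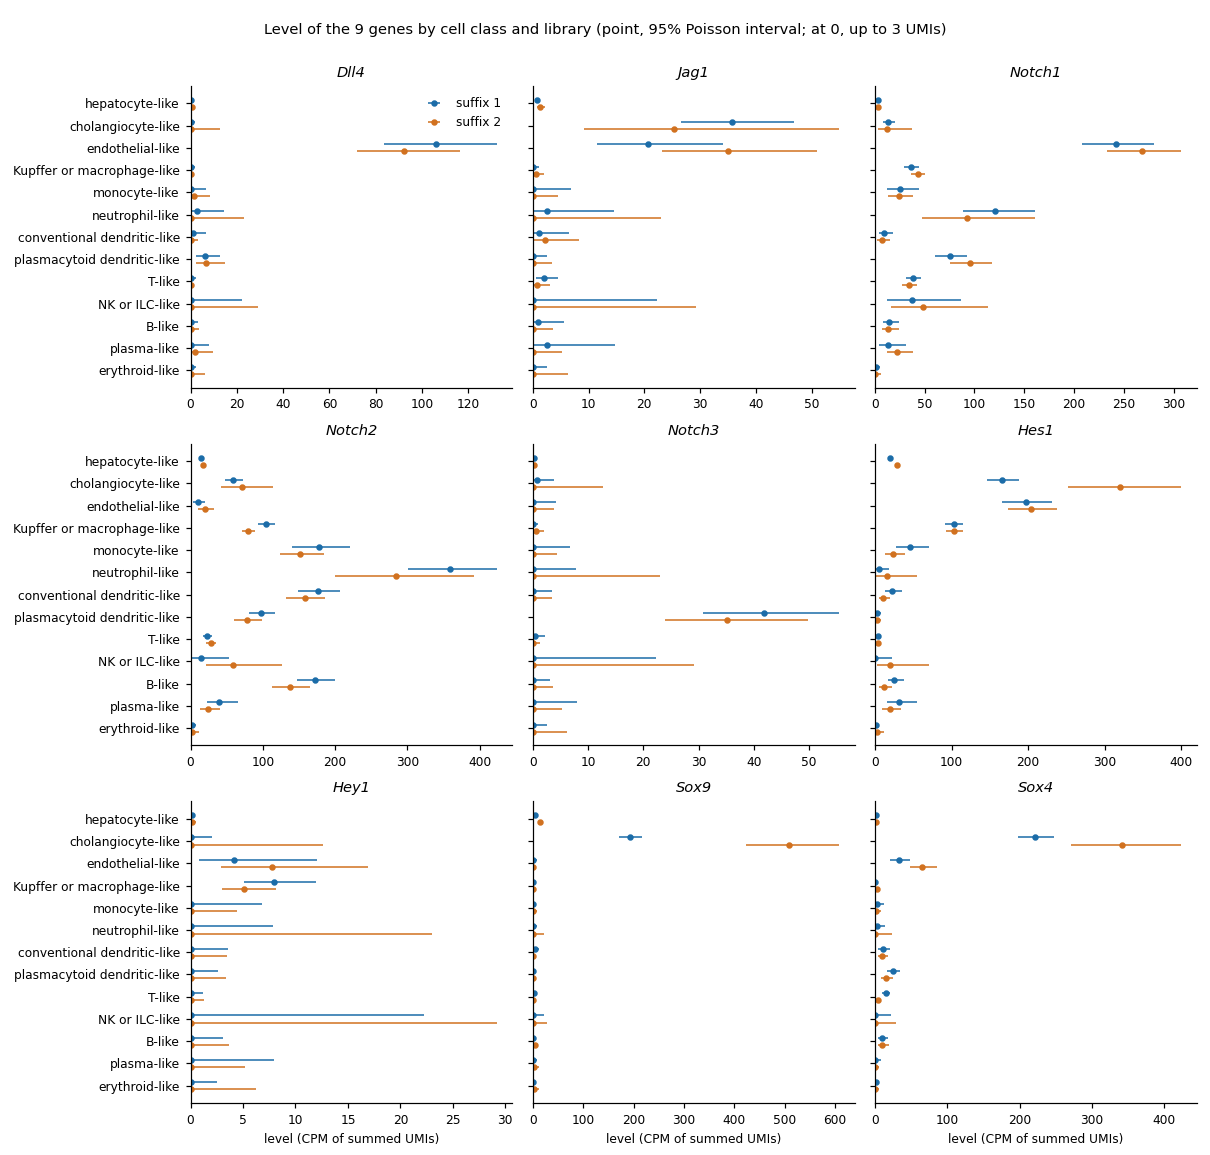
Level of each of the 9 genes (CPM of summed UMIs, horizontal axis, linear from 0 and scaled to each gene) in 13 cell classes with at least 20 cells (vertical axis), with blue points for suffix 1 and orange points for suffix 2. Lines are exact 95% Poisson intervals, or the range up to 3 UMIs where the count was 0. Dll4 and Notch1 stood highest in endothelial-like cells, Notch2 in neutrophil-like cells, Notch3 in plasmacytoid dendritic-like cells, and Sox9 and Sox4 in cholangiocyte-like cells, in both libraries.

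Dll4 (ENSMUSG00000027314, chromosome 2, 119325784 to 119335962, plus strand of GRCm38) encodes the Delta-like ligand of blood vessel endothelium. Dll4 stood at 106 CPM (83.6 to 132, 77 UMIs) in suffix 1 and 92.2 CPM (72.0 to 116, 71 UMIs) in suffix 2, in endothelial-like cells. The next named class in both libraries was the plasmacytoid dendritic-like class, with 6.10 CPM (2.45 to 12.6, 7 UMIs) in suffix 1 and 6.79 CPM (2.49 to 14.8, 6 UMIs) in suffix 2. Endothelial-like cells were thus above every other class of at least 20 cells beyond counting error, while the plasmacytoid dendritic-like level overlapped the interval of the class after it. Hepatocyte-like cells held 0.299 CPM (0.129 to 0.589, 8 UMIs) in suffix 1 and 0.6002 CPM (0.259 to 1.18, 8 UMIs) in suffix 2, and cholangiocyte-like cells held 0 UMIs (up to 2.06 CPM) in suffix 1 and 0 UMIs (up to 12.6 CPM) in suffix 2. Of all kept UMIs of Dll4, 74.0% in suffix 1 and 67.6% in suffix 2 lay in endothelial-like cells, and no cell of that class held more than 4.

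The promoters of Dll4 and Notch1 are shown because both genes were highest in endothelial-like cells, and that of Sox4 because it was the only one of the 6 promoters of these genes in the RefSeq table to hold the core letters bound by RBPJ. Each runs 5′ to 3′ from 250 bases before to 50 bases after the start given by RefSeq (GRCm38.p6), Dll4 at chr2:119325534-119325833 on the plus strand, Notch1 at chr2:26503773-26504072 on the minus strand and Sox4 at chr13:28953650-28953949 on the minus strand. The RefSeq start of Notch1 lies inside the gene as the annotation of the count matrix's build spans it. Capitals mark the RBPJ core TGGGAA and the GC box GGGCGG, each searched on both strands.
Dll4: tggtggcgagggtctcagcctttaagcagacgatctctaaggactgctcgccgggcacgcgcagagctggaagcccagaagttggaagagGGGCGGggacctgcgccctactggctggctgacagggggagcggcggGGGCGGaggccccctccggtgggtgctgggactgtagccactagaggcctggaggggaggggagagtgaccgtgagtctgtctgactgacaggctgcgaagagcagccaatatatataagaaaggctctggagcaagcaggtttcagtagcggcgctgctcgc
Notch1: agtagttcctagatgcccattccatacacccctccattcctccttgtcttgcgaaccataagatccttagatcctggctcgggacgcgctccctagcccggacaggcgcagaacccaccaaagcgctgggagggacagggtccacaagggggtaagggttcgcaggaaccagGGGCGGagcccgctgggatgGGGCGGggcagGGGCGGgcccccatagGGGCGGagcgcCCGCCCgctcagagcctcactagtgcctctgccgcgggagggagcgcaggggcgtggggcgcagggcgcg
Sox4: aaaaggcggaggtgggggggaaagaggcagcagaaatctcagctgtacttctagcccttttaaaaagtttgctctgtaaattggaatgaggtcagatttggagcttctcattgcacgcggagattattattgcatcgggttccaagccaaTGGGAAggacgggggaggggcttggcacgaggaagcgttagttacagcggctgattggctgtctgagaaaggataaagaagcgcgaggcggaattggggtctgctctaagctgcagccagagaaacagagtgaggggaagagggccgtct

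TGGGAA had 1 match in Sox4 and 0 in Dll4, Notch1, Notch2, Notch3 and Jag1, against 25.6% of all 32851 promoters of the same length with a match. GGGCGG had 2 matches in Dll4, 5 in Notch1, 7 in Notch2, 4 in Notch3 and 0 in Jag1 and Sox4, and 35.7% of all promoters held it. CCGGAAGT, the letters of an ETS site, and TATAAA were in none of the 6, and 3.89% and 13.6% of all promoters held them. A match here is a run of letters and not a measured site.

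Jag1 (ENSMUSG00000027276, chromosome 2, 137081456 to 137116644, minus strand) encodes the Jagged ligand of the portal tract. In cholangiocyte-like cells it stood at 35.7 CPM (26.6 to 46.8, 52 UMIs) in suffix 1 and 25.2 CPM (9.26 to 54.9, 6 UMIs) in suffix 2. Endothelial-like cells held 20.6 CPM (11.5 to 34.0, 15 UMIs) in suffix 1 and 35.0 CPM (23.1 to 51.0, 27 UMIs) in suffix 2. These classes came first and second in suffix 1 and second and first in suffix 2, with overlapping intervals in both, so their order was not resolved. In suffix 1, 13 of these 52 UMIs came from 1 cell, and leaving that cell out gave 27.4 CPM. Hepatocyte-like cells were at 0.748 and 1.35 CPM in suffix 1 and suffix 2.

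Jag1 was also read in cluster 25, at 45.1 CPM (19.5 to 88.8, 8 UMIs) and 35.0 CPM (12.8 to 76.1, 6 UMIs). This unnamed cluster of 38 and 62 cells had Gpc6 and Reln among its leading genes and raised all 10 stellate or fibroblast markers, but its score for the Kupffer list was too close for a name.

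Notch1 (ENSMUSG00000026923, chromosome 2, 26457903 to 26516663, minus strand) encodes a receptor known from endothelium and T cell precursors. It stood at 242 CPM (208 to 281, 176 UMIs) in suffix 1 and 269 CPM (233 to 308, 207 UMIs) in suffix 2, in endothelial-like cells, above every other class of at least 20 cells beyond counting error in both libraries. Neutrophil-like and plasmacytoid dendritic-like cells followed. Neutrophil-like cells held 120.4 CPM (88.2 to 161, 46 UMIs) in suffix 1 and 92.1 CPM (47.6 to 161, 12 UMIs) in suffix 2. Plasmacytoid dendritic-like cells held 74.9 CPM (59.9 to 92.5, 86 UMIs) in suffix 1 and 95.1 CPM (75.8 to 118, 84 UMIs) in suffix 2, and their intervals overlapped those of neutrophil-like cells.

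T-like cells held Notch1 at 38.4 CPM (31.2 to 46.7) in suffix 1 and 34.2 CPM (27.1 to 42.4) in suffix 2, and the Kupffer or macrophage-like class held 36.2 CPM (29.5 to 43.8) in suffix 1 and 43.1 CPM (36.5 to 50.5) in suffix 2, overlapping each other. Hepatocyte-like cells were near the bottom of the order, at 2.73 CPM (2.14 to 3.43) in suffix 1 and 3.45 CPM (2.53 to 4.60) in suffix 2, and the erythroid-like level, 0.854 CPM (0.0216 to 4.76) in suffix 1 and 0 UMIs (up to 6.23 CPM) in suffix 2, was not told apart from it at this depth. Cholangiocyte-like cells lay between, with 13.03 CPM (7.85 to 20.4, 19 UMIs) in suffix 1 and 12.6 CPM (2.60 to 36.9, 3 UMIs) in suffix 2.

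After each cell was thinned to 1000 UMIs, Notch1 was detected in 29 of 142 cells, 20.4% (14.1 to 28.0) and 35 of 171 cells, 20.5% (14.7 to 27.3), of endothelial-like cells of suffix 1 and suffix 2. In erythroid-like cells the same count gave 0 of 267 cells and 0 of 107 cells, with median depths before thinning of 3817.5 and 3421 UMIs against 4774 and 4071 in endothelial-like cells. Without thinning 86 of 153 and 88 of 180 endothelial-like cells held a Notch1 UMI. For Dll4 the thinned shares of endothelial-like cells were 10 of 142 cells, 7.04% (3.43 to 12.6) and 9 of 171 cells, 5.26% (2.43 to 9.76), against 0 of 218 cells and 0 of 188 cells, of B-like cells. The order of classes for Notch1 by share was thus led by the same class as its order by CPM.

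Notch2 (ENSMUSG00000027878, chromosome 3, 98013527 to 98150361, plus strand) encodes the receptor that bile duct formation is known to need. Its highest level was not in an epithelial class but in neutrophil-like cells, with 359 CPM (301 to 424, 137 UMIs) in suffix 1 and 284 CPM (199.99 to 392, 37 UMIs) in suffix 2, above every other class of at least 20 cells beyond counting error. The 10 mast or basophil-like cells of suffix 2 held 147 CPM (59.0 to 302), which overlapped it. Monocyte-like cells held 177 CPM (140.0 to 221) in suffix 1 and 152 CPM (124 to 184) in suffix 2. Conventional dendritic-like cells held 176 CPM (149 to 206) in suffix 1 and 158 CPM (133 to 186) in suffix 2, and B-like cells 172 CPM (147 to 199.8) in suffix 1 and 137 CPM (113 to 165) in suffix 2. The intervals of these last classes overlapped one another, so their order was not resolved.

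Kupffer or macrophage-like cells followed at 104 and 79.6 CPM and plasmacytoid dendritic-like cells at 97.6 and 78.1 CPM. Cholangiocyte-like cells held Notch2 at 59.0 CPM (47.2 to 72.9, 86 UMIs) in suffix 1 and 71.5 CPM (41.7 to 115, 17 UMIs) in suffix 2. Endothelial-like cells, where Notch1 was highest, were among the lowest for Notch2, at 9.63 CPM (3.87 to 19.8, 7 UMIs) in suffix 1 and 19.5 CPM (10.9 to 32.1, 15 UMIs) in suffix 2, and their intervals overlapped those of hepatocyte-like cells at 14.7 CPM (13.3 to 16.3) in suffix 1 and 16.8 CPM (14.7 to 19.2) in suffix 2. The thinned share of neutrophil-like cells with a Notch2 UMI was 44 of 132 cells, 33.3% (25.4 to 42.1) and 14 of 51 cells, 27.5% (15.9 to 41.7), against 1 of 142 cells, 0.704% (0.0178 to 3.86) and 1 of 171 cells, 0.585% (0.0148 to 3.22), of endothelial-like cells.

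Conventional dendritic-like cells were the sum of clusters that differed in suffix 1. Cluster 31 held Notch2 at 287 CPM (229 to 355, 85 UMIs) and 163 CPM (121 to 215, 50 UMIs) in 11 and 18 cells. Its first leading gene was Camp, and the cell cycle genes Top2a and Mki67 were among the others. So were Xcr1 and Wdfy4 of the conventional dendritic list and Chil3 of the monocyte list. The part of other myeloid cells in its level was not tested. Cluster 27, led by Ccl22 and Il12b, held 116 CPM (89.3 to 148, 64 UMIs) and 155 CPM (124 to 191, 88 UMIs). The intervals were apart in suffix 1 and overlapped in suffix 2, and 1 cell of suffix 1 carried 20 of the 149 UMIs of the class.

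Notch3 (ENSMUSG00000038146, chromosome 17, 32120820 to 32166852, minus strand) encodes the receptor best known from vascular mural cells. Among named classes it was read almost wholly in plasmacytoid dendritic-like cells, at 41.8 CPM (30.8 to 55.4, 48 UMIs) in suffix 1 and 35.1 CPM (23.8 to 49.8, 31 UMIs) in suffix 2. A Notch3 UMI was present in 37 of 147 and 26 of 121 of these cells, no cell held more than 3, and after thinning the shares were 7 of 147 cells, 4.76% (1.94 to 9.57) and 7 of 121 cells, 5.79% (2.36 to 11.6), against 0 of 218 cells and 0 of 188 cells, of B-like cells. Endothelial-like cells held 0 UMIs (up to 4.13 CPM) in suffix 1 and 0 UMIs (up to 3.89 CPM) in suffix 2, and hepatocyte-like cells 0.150 and 0.225 CPM from 4 and 3 UMIs.

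The unnamed cluster 25 with stellate markers held Notch3 at 67.6 CPM (34.9 to 118, 12 UMIs) and 87.4 CPM (48.9 to 144, 15 UMIs), in 7 cells of each library. Its intervals overlapped those of plasmacytoid dendritic-like cells in suffix 1 and in suffix 2. The plasmacytoid dendritic-like class was defined by Siglech, at 1887 and 1927 CPM, and Ccr9, at 846 and 760 CPM, and all 8 of its markers were detected.

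**Figure D2:**
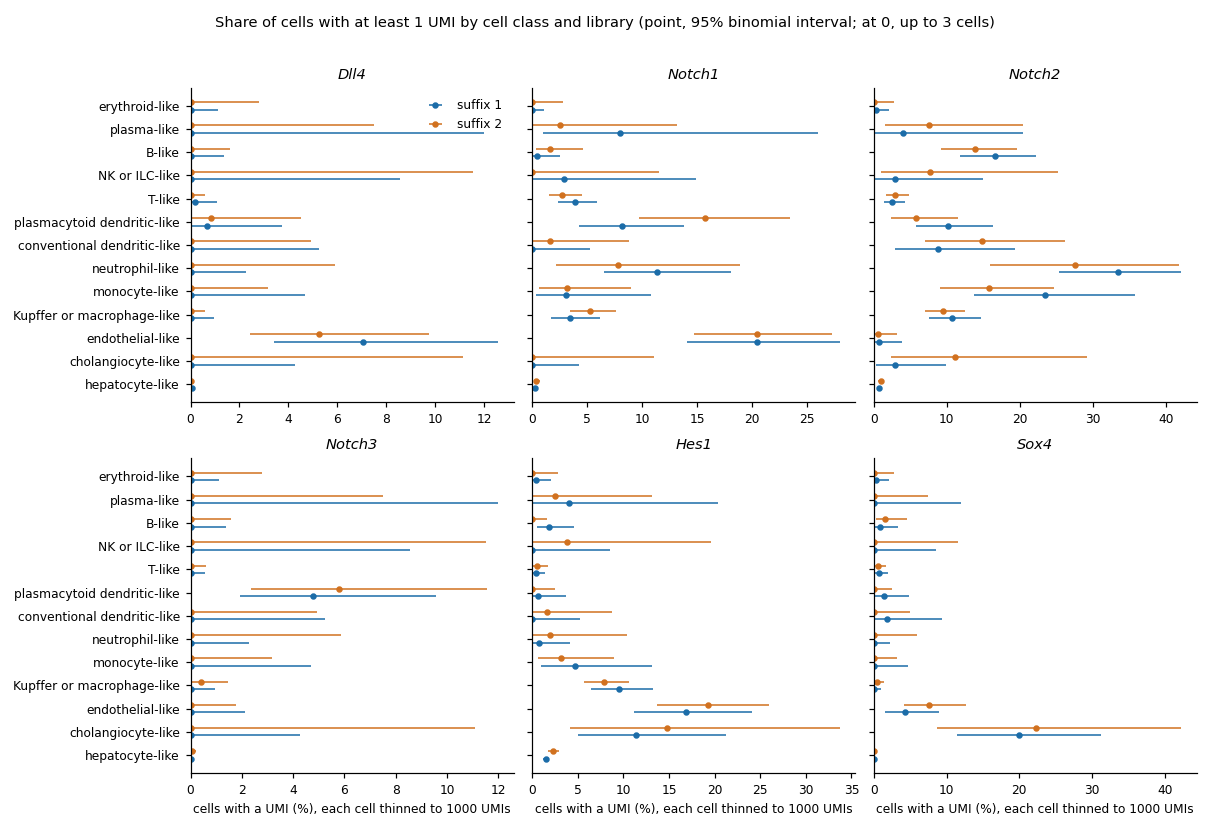
Share of cells with at least 1 UMI of 6 of the genes (percent, horizontal axis, linear from 0 and scaled to each gene) after each cell was thinned to 1000 UMIs, by cell class (vertical axis), with blue points for suffix 1 and orange points for suffix 2. Lines are exact 95% binomial intervals, or the range up to 3 cells where the count was 0. The shares of Notch1 in endothelial-like cells, 20.4% and 20.5%, and of Notch2 in neutrophil-like cells, 33.3% and 27.5%, led their panels.

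Hes1 (ENSMUSG00000022528, chromosome 16, 30064384 to 30067796, plus strand) encodes the transcriptional repressor that is the best known direct target of Notch. Endothelial-like cells held 197 CPM (166 to 232, 143 UMIs) in suffix 1 and 204 CPM (173 to 238, 157 UMIs) in suffix 2. Cholangiocyte-like cells held 166 CPM (146 to 188, 242 UMIs) in suffix 1 and 319.8 CPM (252 to 400.3, 76 UMIs) in suffix 2. The classes overlapped in suffix 1, and the cholangiocyte-like level was above the endothelial-like level in suffix 2, where 1 of 27 cells held 17 of the 76 UMIs. Without that cell it was 272 CPM (207 to 351), which overlapped the endothelial-like interval. With a class given to each cell from the number of its markers, the order in suffix 2 turned to 183 CPM in endothelial-like and 42.6 CPM in cholangiocyte-like cells. The cholangiocyte-like class of that alternative held many more cells than the clustered one, as given in the last section.

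Kupffer or macrophage-like cells came next for Hes1 in both libraries, at 103 CPM (91.5 to 115, 296 UMIs) in suffix 1 and 103 CPM (92.9 to 114, 362 UMIs) in suffix 2. Hepatocyte-like cells held 19.9 CPM (18.2 to 21.7) in suffix 1 and 29.0 CPM (26.1 to 32.0) in suffix 2. T-like cells, which carried Notch1, held Hes1 at only 4.65 CPM (2.40 to 8.12, 12 UMIs) in suffix 1 and 3.37 CPM (1.46 to 6.65, 8 UMIs) in suffix 2, and plasmacytoid dendritic-like cells, which carried Notch1, Notch2 and Notch3, at 2.61 CPM (0.539 to 7.64, 3 UMIs) in suffix 1 and 2.26 CPM (0.274 to 8.18, 2 UMIs) in suffix 2. Neutrophil-like cells, highest for Notch2, held 2 UMIs of Hes1 in each library. The classes with the highest receptor levels were therefore not all high in Hes1: among named classes of at least 20 cells, only the endothelial-like class was among the first 2 for both Notch1 and Hes1.

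Hey1 (ENSMUSG00000040289, chromosome 3, 8663359 to 8667256, minus strand) encodes a related repressor and had 61 UMIs in all kept cells, the fewest of the 9. Kupffer or macrophage-like cells held 7.99 CPM (5.07 to 12.0, 23 UMIs) in suffix 1 and 5.14 CPM (3.04 to 8.12, 18 UMIs) in suffix 2. Endothelial-like cells held 4.13 CPM (0.851 to 12.1, 3 UMIs) in suffix 1 and 7.79 CPM (2.86 to 17.0, 6 UMIs) in suffix 2, and the order of both classes was not resolved. Cholangiocyte-like cells held 0 UMIs (up to 2.06 CPM) in suffix 1 and 0 UMIs (up to 12.6 CPM) in suffix 2, and 9 other classes of at least 20 cells held 0 UMIs in both libraries as well. At this depth a low level of Hey1 in those classes was not detectable.

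Endothelial-like cells came from 2 clusters of unequal depth. Cluster 18, with 91 and 105 cells and Gpihbp1, Bmp2 and Kdr among its leading genes, held Dll4 at 116 CPM (90.8 to 147, 71 UMIs) and 103 CPM (79.4 to 131, 65 UMIs). Cluster 22, with 62 and 75 cells and Stab2, F8 and Ptprb among its leading genes, held Dll4 at 51.7 CPM (19.0 to 113, 6 UMIs) and 43.4 CPM (15.9 to 94.4, 6 UMIs). The Dll4 intervals of both clusters overlapped in both libraries. Hes1 was 221 CPM (185 to 262, 135 UMIs) and 236 CPM (199 to 277, 149 UMIs) in cluster 18 and 69.0 CPM (29.8 to 136, 8 UMIs) and 57.8 CPM (24.96 to 114, 8 UMIs) in cluster 22, with intervals apart in both libraries. Notch1 was 255 CPM (217 to 299, 156 UMIs) and 299 CPM (258 to 345, 189 UMIs) in cluster 18 and 172 CPM (105 to 266, 20 UMIs) and 130.1 CPM (77.1 to 206, 18 UMIs) in cluster 22, apart in suffix 2 alone. The median depth over both libraries was 5683.5 UMIs in cluster 18 and 1703 in cluster 22, and its part in these values was not tested.

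The unnamed cluster 30 of 15 and 37 cells raised both the Kupffer and the endothelial lists. It held Notch1 at 162 CPM (114 to 224, 37 UMIs) and 142 CPM (109 to 181, 63 UMIs), Hes1 at 184 CPM (133 to 249, 42 UMIs) and 202 CPM (163 to 249, 90 UMIs) and Dll4 at 26.3 CPM (9.65 to 57.2, 6 UMIs) and 33.7 CPM (18.9 to 55.6, 15 UMIs). Doublets were not removed, and their part in this cluster was not tested.

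**Figure D3:**
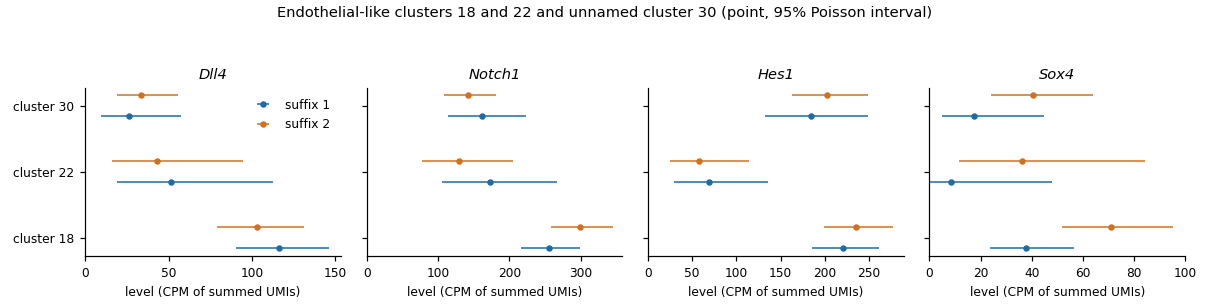
Levels of Dll4, Notch1, Hes1 and Sox4 (CPM of summed UMIs, horizontal axis, linear from 0) in the endothelial-like clusters 18 and 22 and the unnamed cluster 30 (vertical axis), with blue points for suffix 1, orange points for suffix 2 and lines for exact 95% Poisson intervals. Hes1 stood at 221 and 236 CPM in cluster 18 against 69.0 and 57.8 CPM in cluster 22, with intervals apart, while the Dll4 intervals of these clusters overlapped.

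In endothelial-like cells Dll4 and Notch1 were found together in 35 of 153 cells of suffix 1, with 51 cells holding Notch1 alone and 12 holding Dll4 alone. In suffix 2 the same counts were 35 of 180 cells, 53 and 13. Hes1 and Notch1 were found together in 47 and 50 cells. These counts were not thinned, deeper cells are more likely to hold UMIs of any pair, and an excess over the single shares was not tested.

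Sox9 (ENSMUSG00000000567, chromosome 11, 112782224 to 112787760, plus strand) encodes the transcription factor that marks bile duct cells and their precursors. It stood at 193 CPM (171 to 217, 281 UMIs) in suffix 1 and 509 CPM (422 to 608, 121 UMIs) in suffix 2, in cholangiocyte-like cells, above every other class of at least 20 cells beyond counting error. A UMI was present in 57 of 70 and 19 of 27 of these cells, and in 13 of 70 cells, 18.6% (10.3 to 29.7) and 7 of 27 cells, 25.9% (11.1 to 46.3), after thinning, against 2 of 515 cells, 0.388% (0.0471 to 1.40) and 0 of 514 cells, of T-like cells. The CPM of suffix 2 was the higher, as it was for the class markers Epcam (215 and 589 CPM), Krt19 (80.9 and 265 CPM) and Krt7 (16.5 and 79.9 CPM). The gap was smaller for the class markers Krt8 (735 and 884 CPM), Clu (5835 and 7279 CPM) and Tm4sf4 (1076 and 1144 CPM). The median depth was 15223.5 and 6204 UMIs per cell. The part of either in the difference between these libraries was not tested.

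Hepatocyte-like cells held Sox9 at 4.56 CPM (3.79 to 5.45, 122 UMIs) in suffix 1 and 14.6 CPM (12.6 to 16.8, 195 UMIs) in suffix 2. Erythroid-like cells, which should lack Sox9, held 1 UMI in each library, or 0.854 CPM (0.0216 to 4.76) and 2.08 CPM (0.0526 to 11.6). The hepatocyte-like interval overlapped the erythroid-like one in suffix 1 and lay above it in suffix 2. The hepatocyte-like level of Sox9 depended on which cells entered the class. With a mitochondrial limit of 10% it was 1.64 CPM in suffix 1 and 6.43 CPM in suffix 2, and with a minimum of 1000 UMIs per cell it was 4.92 CPM in suffix 2. Over the 12 alternatives the hepatocyte-like level of Notch2 ran from 4.43 to 15.3 CPM in suffix 1 and from 8.64 to 16.8 CPM in suffix 2. For Hes1 it ran from 14.2 to 20.8 CPM and from 16.6 to 29.0 CPM.

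Sox4 (ENSMUSG00000076431, chromosome 13, 28948919 to 28953713, minus strand) encodes a SOX factor that acts with SOX9 in bile duct formation and is also known from lymphocyte precursors. Cholangiocyte-like cells held 222 CPM (198 to 247, 323 UMIs) in suffix 1 and 341 CPM (271 to 424, 81 UMIs) in suffix 2, again above every other class of at least 20 cells in both libraries. With a class given to each cell from the number of its markers, Sox4 in suffix 2 was instead highest in endothelial-like cells, at 50.9 CPM against 12.7 CPM. The cholangiocyte-like class of that alternative held many more cells than the clustered one. Its marker list also summed to 1392 CPM in hepatocyte-like cells of suffix 2, and their part in it was not tested. By cluster, endothelial-like cells came second with 33.0 CPM (21.2 to 49.1, 24 UMIs) in suffix 1 and 64.9 CPM (48.2 to 85.6, 50 UMIs) in suffix 2. Plasmacytoid dendritic-like cells held 24.4 CPM (16.2 to 35.2, 28 UMIs) in suffix 1 and 14.7 CPM (7.84 to 25.2, 13 UMIs) in suffix 2, overlapping the endothelial-like interval in suffix 1 and below it in suffix 2. Hepatocyte-like cells were among the lower classes, at 0.935 CPM (0.605 to 1.38, 25 UMIs) in suffix 1 and 1.13 CPM (0.630 to 1.86, 15 UMIs) in suffix 2. In suffix 2, 7 of these 15 UMIs came from 1 cell, and without it the level was 0.602 CPM (0.260 to 1.19).

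T-like cells held Sox4 at 14.7 CPM (10.4 to 20.2, 38 UMIs) in suffix 1 and 4.22 CPM (2.02 to 7.75, 10 UMIs) in suffix 2. Nearly all of it lay in cluster 8, led by Lef1, Tcf7 and Il7r, at 30.1 CPM (21.3 to 41.3, 38 UMIs) and 10.4 CPM (4.76 to 19.8, 9 UMIs), and cluster 6, led by Cxcr6, held 0 and 1 UMIs of Sox4. One T-like cell of suffix 1 held 11 of the 38 UMIs.

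In cholangiocyte-like cells UMIs of Sox9 and Sox4 were found together in 45 of 70 cells of suffix 1 and 14 of 27 of suffix 2, with 12 and 5 cells holding Sox9 alone and 3 and 1 holding Sox4 alone. Sox9 and Hes1 were together in 44 and 15 cells, with 13 and 4 holding Sox9 alone and 7 and 1 Hes1 alone. For Sox9 and Notch2 the cells with both numbered 38 and 10, and for Sox9 and Jag1 21 and 4, with 36 and 15 holding Sox9 without Jag1. Whether any pair was found together more often than its single shares give was not tested.

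Within hepatocyte-like cells the levels differed with depth, and the mitochondrial share moved with it, at medians of 15.03% and 15.4% in cells of at least 5000 UMIs against 1.63% and 3.36% in the others. The part of that share in the levels was not tested. Cells with at least 5000 UMIs, 699 in suffix 1 and 565 in suffix 2, held Sox9 at 6.86 CPM (5.59 to 8.32) and 20.6 CPM (17.7 to 24.0), against 1.68 CPM (1.03 to 2.60) and 4.91 CPM (3.18 to 7.25) in the 8329 and 3317 cells below that limit. Notch2 was 22.4 CPM (20.05 to 24.9) and 21.97 CPM (18.9 to 25.4) in the deeper cells and 5.14 CPM (3.93 to 6.598) and 8.45 CPM (6.11 to 11.4) in the others. Hes1 was 23.9 CPM (21.5 to 26.6) and 35.8 CPM (31.8 to 40.1) against 14.8 CPM (12.7 to 17.2) and 17.9 CPM (14.4 to 21.9). Intervals were apart for the 3 genes in both libraries, and Notch1 showed no such gap, at 2.82 CPM (2.04 to 3.82) and 3.76 CPM (2.56 to 5.34) against 2.61 CPM (1.77 to 3.70) and 2.95 CPM (1.65 to 4.86).

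The deeper hepatocyte-like cells were split into 3 parts of near equal size along the liver lobule, by the log ratio of the summed UMIs of 6 pericentral to 6 periportal genes. Sox9 in the periportal, middle and pericentral part of suffix 2 was 27.3 CPM (22.1 to 33.2), 17.2 CPM (12.5 to 23.0) and 13.1 CPM (8.54 to 19.2). The periportal interval lay above the pericentral one in that library. In suffix 1 the same parts held 7.84 CPM (5.74 to 10.46), 6.25 CPM (4.33 to 8.74) and 6.16 CPM (3.86 to 9.33), all overlapping. The parts also differed in depth, with medians of 18526.5, 12080 and 7522.5 UMIs in suffix 2 and 27261, 24334.5 and 10925 in suffix 1, and since Sox9 also differed with depth, zone and depth were not told apart.

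Hes1 and Notch2 showed no such order. In suffix 2 Hes1 was 40.7 CPM (34.4 to 47.9), 29.4 CPM (23.2 to 36.8) and 35.2 CPM (27.5 to 44.5) from periportal to pericentral. Notch2 in the same parts was 18.7 CPM (14.5 to 23.7), 26.0 CPM (20.2 to 32.9) and 22.6 CPM (16.5 to 30.3). All intervals of a gene overlapped, and they also did for both genes in suffix 1.

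**Figure D4:**
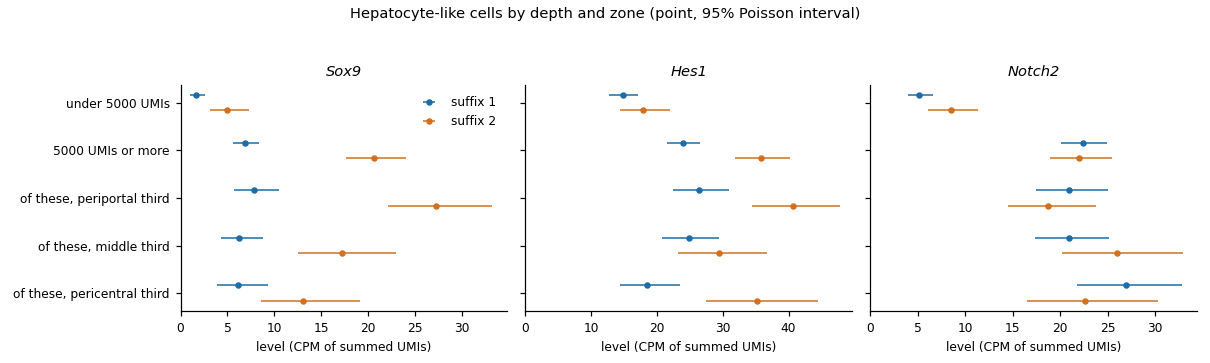
Levels of Sox9, Hes1 and Notch2 (CPM of summed UMIs, horizontal axis, linear from 0) in hepatocyte-like cells under and over 5000 UMIs and in the 3 zonal parts of the deeper cells (vertical axis), with blue points for suffix 1, orange points for suffix 2 and lines for exact 95% Poisson intervals. Sox9 in suffix 2 was 27.3 CPM in the periportal part and 13.1 CPM in the pericentral part, while the parts of suffix 1 lay between 6.16 and 7.84 CPM.

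Hepatocyte-like cluster 16 was read on its own. It had the highest Hes1 and Notch2 of the hepatocyte-like clusters of at least 10 cells in both libraries. Its place above them is therefore no separate result. Its 77 and 154 cells, led by Gm20528, Egfros and Dpyd, held Hes1 at 77.3 CPM (54.7 to 106, 38 UMIs) and 93.4 CPM (73.3 to 117, 74 UMIs) and Notch2 at 67.2 CPM (46.2 to 94.3, 33 UMIs) and 60.6 CPM (44.7 to 80.3, 48 UMIs). These were above the level of all hepatocyte-like cells, a total that includes the cluster, beyond counting error in both libraries. Notch1 in the cluster was 6.11 CPM (1.26 to 17.8, 3 UMIs) and 13.9 CPM (6.93 to 24.8, 11 UMIs), above that level in suffix 2 alone. Gm15622, Gm29966 and 9030622O22Rik were also among the leading genes of the cluster, and what sets its droplets apart was not tested.

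When deeper hepatocyte-like cells were thinned to 5000 UMIs, a Sox9 UMI was present in 29 of 699 cells of suffix 1 and 60 of 565 cells of suffix 2. None of these cells held a UMI of Epcam, Krt7 or Krt19, where 3 cells would make 10.3% in suffix 1 and 5% in suffix 2. This does not limit the share that express these genes. Of the cells without a Sox9 UMI, 2 of 670 and 0 of 505 held such a UMI, so the groups were not told apart. Krt7 was found in only 17 of 70 and 10 of 27 cholangiocyte-like cells. In the deeper hepatocyte-like cells with a Sox9 UMI, Spp1, the gene of osteopontin, which bile duct cells also express, was 1248 CPM (1073 to 1444) and 93.3 CPM (62.0 to 135). Cells without Sox9 held 354 CPM (334 to 375) and 50.7 CPM (42.3 to 60.3). In suffix 1 a single cell held 95 of the 181 Spp1 UMIs of the cells with Sox9. Without the cell with the most Spp1 UMIs, cells with Sox9 held 614 and 71.2 CPM, and no interval was computed for these. Higher Spp1 was not particular to cells with Sox9. Cells with a Hes1 UMI held 623 CPM (551 to 702) and 93.7 CPM (66.0 to 129), or 442 and 66.7 CPM without their top cell. Cells without Hes1 held 358 CPM (338 to 380) and 49.0 CPM (40.6 to 58.6). For Notch2 it was 368 against 394 CPM in suffix 1 and 137 against 46.6 CPM in suffix 2. Alb was also the higher in cells with a Sox9 UMI, at 37510 and 47307 CPM against 31356 and 36719 CPM in cells without. Cebpa in suffix 2 was 107 CPM (73.0 to 151) in cells with a Sox9 UMI and 104 CPM (91.9 to 118) in cells without, with overlapping intervals.

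Set against hepatocyte-like cells, 5 of 9 measured members in suffix 1 and 6 of 8 in suffix 2 were at least 4 times as high in endothelial-like cells, with at least 4 UMIs there. Of all genes with at least 4 UMIs in either class, 25.8% and 27.3% passed the same rule. The 5 were Sox4, Hes1, Notch1, Jag1 and Dll4, and Hey1 joined them in suffix 2 with 6 UMIs against 2, a gene that was measured only through the endothelial-like class. The ratio was 354 times (171 to 849.6) and 154 times (73.8 to 369) for Dll4 and 88.7 times (67.2 to 118) and 77.9 times (56.3 to 109.6) for Notch1 in suffix 1 and suffix 2. It was 9.89 times (8.17 to 11.9) and 7.04 times (5.81 to 8.49) for Hes1. Notch2 was at 0.654 times (0.261 to 1.36) and 1.16 times (0.638 to 1.95), intervals that hold 1. Over the alternatives the hepatocyte-like level of Notch2 went as low as 4.43 and 8.64 CPM, and the direction of its ratio was not resolved. Sox9 was lower by the same rule in suffix 2 alone, with a ratio of 0.089 (up to 0.5001) from 1 UMI. The count of members at least 4 times lower was 0 in suffix 1 and 1 in suffix 2, against 3.77% and 4.32% of all genes.

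In cholangiocyte-like cells 6 of 9 measured members in suffix 1 and 5 of 7 in suffix 2 were at least 4 times as high as in hepatocyte-like cells, against 20.4% and 14.2% of all genes measured. Those past the rule were Sox9, Sox4, Hes1, Notch2 and Jag1 in both libraries, and Notch1 in suffix 1. The ratio was 42.3 times (34.1 to 52.7) and 34.8 times (27.5 to 43.9) for Sox9, 237 times (158 to 372) and 303 times (173 to 566) for Sox4 and 47.7 times (28.0 to 84.4) and 18.7 times (6.07 to 49.2) for Jag1. The Sox4 ratio of suffix 2 rests on a hepatocyte-like level that fell from 1.13 to 0.602 CPM without 1 cell, so it would be almost 2 times as large without that cell. Notch2 was just past the rule, at 4.01 times (3.13 to 5.07) and 4.26 times (2.44 to 6.97), so that its interval reached below 4 in both libraries. Notch1 in suffix 1 was at 4.78 times (2.72 to 7.999). Without the cell with the most UMIs of each gene, neither Notch1 nor Notch2 passed in suffix 1 and 4 members did. With a class given to each cell from the number of its markers, 3 and 2 members passed. The share of all genes was not computed under either alternative. No member was at least 4 times lower in this class, against 0.875% and 0.811% of all genes.

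Over genes with at least 4 UMIs in both classes, the median ratio of the members was 31.5 (6 genes) and 41.8 (6 genes) in endothelial-like cells, against 2.33 and 2.31 over all 10330 and 10393 such genes. In cholangiocyte-like cells it was 25.3 (6 genes) and 18.7 (5 genes), against 1.91 and 1.95 over all 11766 and 7662 such genes. Sox9, Notch3 and Hey1 did not enter the endothelial-like median in either library, and Sox9 and Notch3 were low or not detected in that class. Dll4, Notch3 and Hey1 did not enter the cholangiocyte-like median in either library.

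**Figure D5:**
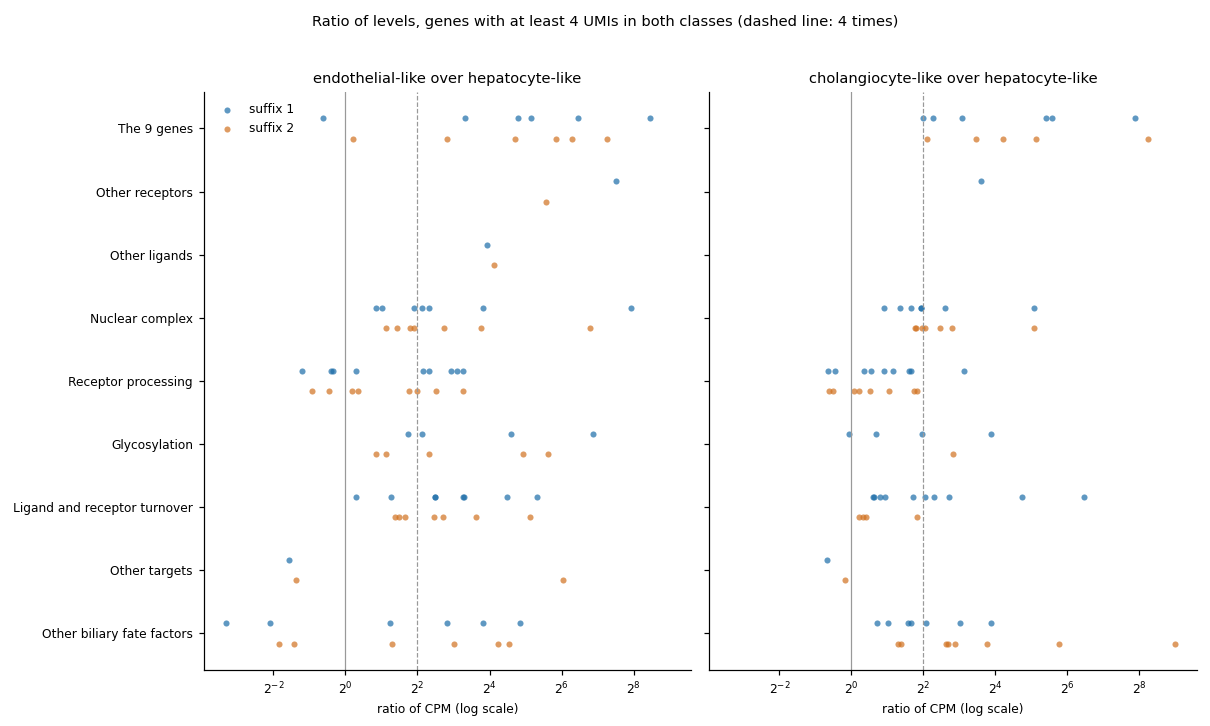
Ratio of the CPM in endothelial-like (left) and cholangiocyte-like (right) cells to the CPM in hepatocyte-like cells (horizontal axis, log scale) for the 9 genes and 8 groups of other pathway genes (vertical axis), 1 point per gene with at least 4 UMIs in both classes, blue for suffix 1 and orange for suffix 2, without error bars. The dashed line marks 4 times. Dll4 and Notch1 in endothelial-like cells and Sox4 in cholangiocyte-like cells lay farthest to the right among the 9.

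The other genes of the pathway were read from a list of 57 genes, all present in the matrix. In endothelial-like cells 24 of 42 measured genes in suffix 1 and 19 of 45 in suffix 2 were at least 4 times as high as in hepatocyte-like cells, against 25.8% and 27.3% of all genes. In suffix 1, 3 of the 42 (Rfng, Onecut1 and Onecut2) were at least 4 times lower, against 3.77% of all genes, and none were in suffix 2. Rfng had 1 UMI in endothelial-like cells of suffix 1 and was measured only through the hepatocyte-like class. Its 1.38 (0.0348 to 7.66) CPM overlapped the hepatocyte-like 6.43 (5.50 to 7.47) CPM. In suffix 2 Rfng was at 11.7 (5.34 to 22.2) against 6.53 (5.23 to 8.05) CPM. Notch4, the endothelial receptor, stood at 41.3 (27.8 to 58.9) and 28.6 (17.9 to 43.2) CPM. Dll1, a second Delta-like ligand, was at 9.63 (3.87 to 19.8) and 10.4 (4.48 to 20.5) CPM. Nrarp, a feedback inhibitor that Notch switches on, was at 34.4 (22.3 to 50.8) and 44.1 (30.6 to 61.7) CPM, and these 3 genes passed the rule in both libraries. Nrarp in suffix 1 had 2 UMIs in hepatocyte-like cells and was measured only through the endothelial-like class. NK or ILC-like cells held Nrarp at 44.6 (16.4 to 97.0, 6 UMIs) and 29.2 (6.02 to 85.4, 3 UMIs) CPM. These intervals overlapped those of endothelial-like cells.

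Of the genes of ligand and receptor turnover, 6 of 10 measured in suffix 1 and 5 of 11 in suffix 2 passed in endothelial-like cells, against the same 25.8% and 27.3% of all genes. Numb, an adaptor that holds Notch down, stood at 641 (584 to 702) and 508 (458 to 560.4) CPM, the highest of any class. Mib1, the ligase that makes ligands active, was at 162 (134 to 194) and 165 (137 to 196) CPM. Of 5 glycosylation genes, 3 (Pofut1, Lfng and Mfng) passed in both libraries, and Lfng, a Fringe enzyme that changes which ligand a receptor answers, stood at 26.1 (15.7 to 40.8) and 41.5 (28.4 to 58.6) CPM. Lfng in Kupffer or macrophage-like cells was 85.2 (74.8 to 96.5) and 98.1 (88.0 to 109) CPM. Of the nuclear complex, the Mastermind genes Maml2 and Maml3 passed in both libraries, Maml2 at 480.1 (431 to 533) and 436 (391 to 485) CPM. Rbpj, the DNA-binding partner of cleaved Notch, was highest in conventional dendritic-like cells, at 381 (341 to 425) and 238 (207 to 272) CPM.

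Of the 9 genes of receptor processing, Adam10 and Adam17, the proteases of the first cut, passed in endothelial-like cells of both libraries, and 3 more passed in suffix 1 alone. The 2 of 9 in suffix 2 were no larger a share than the 27.3% of all genes. Adam10 was highest in Kupffer or macrophage-like cells, at 324 (303 to 345) and 379 (359 to 400.1) CPM. Psen2, a γ-secretase subunit, was instead highest in hepatocyte-like cells, at 215 (209.7 to 221) and 329 (319 to 338) CPM. Of the other target genes, 2 and 3 of 8 were measured in endothelial-like cells of suffix 1 and suffix 2, and Nrarp was the 1 that passed. Hes6, which is expressed outside Notch signaling too, was at 64.7 (61.7 to 67.9) and 67.2 (62.8 to 71.7) CPM in hepatocyte-like cells, and Hes2 held 0 UMIs in all.

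In cholangiocyte-like cells 16 of 44 measured genes in suffix 1 and 13 of 46 in suffix 2 passed, against 20.4% and 14.2% of all genes. The group of other biliary fate factors held 6 of 10 in suffix 1 and 8 of 10 in suffix 2. Of these, Grhl2, Klf5 and Ehf in suffix 1 and Grhl2 and Klf5 in suffix 2 were measured only through the cholangiocyte-like class. Onecut2, a factor of the early biliary program, was 224 (200.02 to 249) and 518 (430.1 to 617) CPM against 71.2 (68.1 to 74.5) and 70.0 (65.6 to 74.6) CPM in hepatocyte-like cells. Onecut1, its relative that hepatocytes also use, was 225 (201 to 251) and 269 (207 to 344) CPM against 138 (133 to 142) and 41.9 (38.5 to 45.5) CPM, so both passed in suffix 2 alone. Ehf, Grhl2 and Klf5, epithelial factors, passed in both libraries, with Ehf at 24.7 (17.3 to 34.2) and 151 (106 to 209.7) CPM.

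Of the Hippo factors in the list, Yap1 was 43.9 (33.8 to 56.1) and 67.3 (38.5 to 109) CPM in cholangiocyte-like cells and 21.8 (20.1 to 23.6) and 25.7 (23.1 to 28.6) CPM in hepatocyte-like cells and passed in neither library, while Wwtr1 and Tead1 passed in both. Wwtr1 was highest in endothelial-like cells, at 248 (213 to 287) and 284 (248 to 325) CPM. Of the genes of ligand and receptor turnover, 5 of 10 measured passed in cholangiocyte-like cells of suffix 1 and 0 of 10 in those of suffix 2, against 20.4% and 14.2% of all genes, and in suffix 2 the class held 237663 UMIs against 1457713.

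Genes whose levels followed each of the 9 most closely were ranked by Pearson's r of log2(CPM + 10) over 26 profiles, 13 classes in each library, among 7726 genes of at least 50 CPM in 1 profile. The profiles share libraries, depth and free RNA, and r is given as a description. Erbb4, the receptor of neuregulins, was most like Sox9 (r = 0.989), followed by Col4a5 and Slc44a3. Frmd6 (0.925), Rbms3 and Glis2 were most like Sox4, and all of these were highest in cholangiocyte-like cells.

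Among the other genes, Gab1 (0.908), Dock1 and Dlc1 were most like Hes1, and Znrf1 (0.881), Rapgef2 and Snrk were most like Notch1. Gm46565 (0.984), Tpbgl and Esm1, an endothelial tip cell gene, were most like Dll4. Npdc1 (0.959), Cdc42ep1 and 9530026P05Rik were most like Jag1. Map3k5 (0.900), March1 and Irak2 were most like Notch2. Sh3bgr (0.997), Atp2a1 and Pgam2, known from muscle, were most like Notch3 and highest in plasmacytoid dendritic-like cells, and Dysf (0.961), 2610203C22Rik and Phactr1 were most like Hey1 on its 61 UMIs.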

How the data were processed

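The deposited values were whole UMI counts per gene and barcode, in 1 matrix of both libraries. The authors made them with Cell Ranger 7.1.0 (file header) and the submitters' processing notes name bcl2fastq 2.20.0, STAR 2.7.2a and mm10. Libraries were 10x 3′ gene expression. No column held values of another series' samples (0 unused). Cells with at least 500 UMIs, at least 200 genes and at most 25% UMIs of 13 mitochondrial genes were kept.

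Cells were clustered with scanpy 1.11.5 and igraph 0.11.9 on Python 3.11.15: 2000 variable genes without the members, the 57 pathway genes and the mitochondrial genes, 30 principal components, 15 neighbors and Leiden clustering at resolution 1. A cluster took the name of 1 of 16 marker lists where its score was at least 1 and the next list scored at most 0.75 of it. At least 3 markers and over 50% of the list had to be raised, and a shallow cluster (median UMIs under that of its library divided by 3) needed a marker among its 10 leading genes.

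UMIs were summed per class and library and given as CPM, with exact Poisson or Clopper-Pearson intervals (scipy 1.17.1). A count of 0 was given with the level that 3 UMIs (or cells) would make. No test was made, since each group was 1 library and no label ties a barcode suffix to a genotype. The named genes were the 9 members, the pathway list and, for each member, the 3 genes with the most similar profile. Members and lists were chosen with earlier results of these data known. The scripts were checked on simulated data. Positions are of GRCm38. Sox4, Notch1, Notch2, Notch3 and Dll4 overlap other annotated genes, and the sources used here do not say whether counting used strand, so that reads of Sox4, Notch1, Notch3 and Dll4 cannot be told apart from those of partners on the other strand. Notch2 and Notch1 also have partners on their own strand, and how reads shared with these were counted is likewise not stated. RefSeq promoters were matched for 6 of the 9 genes, and none was used for Sox9, Hes1 and Hey1. Some genes of the lists are not reported here.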

Additional observations from a re-analysis of the deposited data

Results flagged for a closer look

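Droplets over the mitochondrial limit did not enter the values of the report. For 7 of the 9 genes the lower bound of their level lay above the 3 UMIs that a count of 0 allows, which is why they are listed. Notch3 held 4 and 5 UMIs and Hey1 2 and 2. In suffix 1 these droplets held Notch2 at 13.7 CPM, Hes1 at 8.43 CPM, Notch1 at 5.03 CPM, Sox9 at 1.13 CPM, Sox4 at 0.703 CPM, Dll4 at 0.703 CPM and Jag1 at 0.486 CPM. In suffix 2 they held Notch2 at 8.48 CPM, Hes1 at 6.36 CPM, Notch1 at 3.41 CPM, Sox9 at 1.67 CPM, Jag1 at 0.908 CPM, Sox4 at 0.606 CPM and Dll4 at 0.341 CPM. No empty droplets served as a control here.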

How the results depend on the processing

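No paired analysis was possible because each group was 1 library and no test was made, and for the same reason no replicate could be left out. The counts of members at least 4 times as high as in hepatocyte-like cells ran from 5 to 7 in suffix 1 and from 6 to 7 in suffix 2 for endothelial-like cells over the 12 alternatives. For cholangiocyte-like cells they moved by over 1.5 times under 1 alternative: with a class given to each cell from the number of its markers detected, without clustering, 3 (suffix 1) and 2 (suffix 2) members passed, against 6 and 5. That class held 1258 and 808 cells instead of 70 and 27. The share of all genes past the rule was not computed under any alternative.

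The class with the highest level was kept in all 12 alternatives for 9 of 18 pairs of gene and library, among them Dll4, Notch1 and Notch2 in both libraries. Sox9 kept it in 12 and 11, Sox4 in 12 and 10 and Hes1 in 10 and 10. At a mitochondrial limit of 10% the cholangiocyte-like class of suffix 2 had 18 cells and left the order, with its own levels at 701 CPM (Sox9), 468 CPM (Sox4) and 378 CPM (Hes1). With a class per cell, endothelial-like cells led for Sox4 and Hes1 in suffix 2 (50.9 against 12.7 and 183 against 42.6 CPM). Cholangiocyte-like cells led for Hes1 in suffix 1 without a mitochondrial limit (163 against 149 CPM) and by the mean of CPM over cells (211 against 179 CPM). Hey1 in suffix 2 was led by Kupffer or macrophage-like cells (4.74 against 4.38 CPM) and Jag1 in suffix 2 by cholangiocyte-like cells (26.5 against 26.3 CPM) without a mitochondrial limit. With a class per cell, stellate or fibroblast-like cells were highest for Notch3 (49.8 and 60.7 CPM) and Jag1 (62.3 and 43.3 CPM). That alternative moved 31 of 81 levels out of their interval, 26 of them down. Without a mitochondrial limit 18 of 75 levels moved, and at a limit of 10% 13 of 75 did. Shares of cells moved with the thinning depth, 44 of 81 down at 500 UMIs and 41 of 81 up at 2000. Depth limits Hey1, and Jag1 and Notch1 in the 27 cholangiocyte-like cells of suffix 2.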
